A study of Mus musculus with 14 samples.

Results

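The 28 genes described here encode enzymes and carriers that take fatty acids through oxidation to acetyl-CoA and on to ketone bodies, and all 28 were found by symbol among the 28022 genes of the count table. Their levels were read in 14 RNA-seq libraries, 2 for each of 7 conditions. The cultures were iHepSCs grown alone in 2D (2D-iHs), iHepSCs with iECs in 2D (2D-iHEs), 3D organoids of iHepSCs (iHLOs, labelled 3D-iHA) and 3D assembloids of iHepSCs with iECs (iHEAs). The other conditions were fibroblasts, adult liver and fetal liver. Every library carries the strain label C57BL/6J, and the study's methods give adult liver as taken from young adult male mice and fetal liver as taken at midgestation. iHepSCs are hepatic stem-like cells made from mouse embryonic fibroblasts with lentiviral *Oct4* and *Hnf4α*, so all 4 cultures share these 2 transgenes. iECs are endothelial-like cells made with *ETV2* from the human fibroblast line HF1, and reads of theirs enter the table only by alignment to the mouse genome. All 4 cultures received the same mixed medium with oncostatin M. The 3D cultures were first formed as spheroids in hepatic medium, then embedded in collagen and Matrigel and kept on an orbital shaker. The 2D co-culture was grown on plates coated with type I collagen. Shape, matrix and these other steps cannot be told apart. Both libraries of a condition may come from 1 culture or tissue, and p-values then measure only the spread between these libraries.

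A fatty acid that enters a cell is bound to coenzyme A by acyl-CoA synthetases, passed into the mitochondrion by the carnitine shuttle and shortened in repeated cycles of dehydrogenation, hydration, dehydrogenation and thiolysis. The electrons leave through the electron transfer flavoprotein, double bonds are removed by auxiliary enzymes, and very long chains are first shortened in peroxisomes. Hepatocytes turn the resulting acetyl-CoA into ketone bodies, which other tissues use as fuel, and the enzymes of these steps are known to rise in liver around birth and in fasting. Many of the genes are known targets of the nuclear receptor PPARα, which binds DNA as a heterodimer at repeats of the half-site AGGTCA.

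Some promoters of genes in the comparisons are shown first, as RefSeq gives them for GRCm38.p6. They run from 250 bases before to 50 bases after the start, 5′ to 3′ on the strand of the gene. RefSeq windows were found for 24 of the 28 genes. In *Cpt1a* (chr19:3323051-3323350, + strand), *Cd36* (chr5:17835847-17836146, − strand) and *Fabp1* (chr6:71199629-71199928, + strand) the capitals mark the half-site AGGTCA or its reverse complement TGACCT. *Cpt1a* is shown because it rose in 3D culture, whereas *Cd36* and *Fabp1* were nearly silent in the cultures and abundant in adult liver.
Cpt1a: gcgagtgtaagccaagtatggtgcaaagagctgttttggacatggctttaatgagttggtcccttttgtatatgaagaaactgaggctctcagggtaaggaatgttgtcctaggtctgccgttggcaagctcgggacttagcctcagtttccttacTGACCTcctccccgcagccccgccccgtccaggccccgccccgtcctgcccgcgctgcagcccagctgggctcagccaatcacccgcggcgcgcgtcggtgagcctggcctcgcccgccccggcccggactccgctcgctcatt
Cd36: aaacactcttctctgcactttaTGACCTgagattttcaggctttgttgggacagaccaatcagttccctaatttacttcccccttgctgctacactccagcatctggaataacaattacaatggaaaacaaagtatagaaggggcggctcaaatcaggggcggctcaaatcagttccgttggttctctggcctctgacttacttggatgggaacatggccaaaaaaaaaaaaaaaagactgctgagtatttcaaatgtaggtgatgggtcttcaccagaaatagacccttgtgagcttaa
Fabp1: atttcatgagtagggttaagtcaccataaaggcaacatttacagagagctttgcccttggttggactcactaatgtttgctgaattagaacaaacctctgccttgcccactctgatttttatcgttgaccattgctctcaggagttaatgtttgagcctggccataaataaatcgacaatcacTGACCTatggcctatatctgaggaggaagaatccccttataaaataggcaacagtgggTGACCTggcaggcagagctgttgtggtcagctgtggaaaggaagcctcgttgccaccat

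*Fabp1* held the half-site at 2 places, and *Cpt1a* and *Cd36* held it once each, as did *Acadm* and *Acadvl*. The windows of *Acsl5*, *Acsl1*, *Slc25a20*, *Acadl* and *Ehhadh*, which also changed in 3D culture, held none. Of the 26 windows of the 24 genes, 5 held the half-site on either strand (19.2%), against 16.3% of all 32851 promoter windows of this length. The direct repeat of 2 half-sites with 1 base between them, which contains the half-site, was in none of the members' windows and in 0.0396% of all windows. These are letter matches within short windows, and no binding was measured. Members' windows had a median GC content of 60.5% and 16.5 CpG dinucleotides, against 52.7% and 7 in all windows. The windows of *Cd36* (43% GC, 3 CpG), *Acaa1b* (43.7%, 4 CpG) and *Fabp1* (45%, 3 CpG) were the poorest in GC among them, and these 3 genes were also below 3 CPM in every culture library. *Etfb* was below 3 CPM there too, and its window had 55.3% GC and 16 CpG. CPM is the unit of level used here, a count relative to the TMM-scaled total of its library, and TMM scaling is meant to remove differences in library size and composition.

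A further window is shown for *Hadhb*, which encodes the β subunit of the mitochondrial trifunctional protein. *Hadhb* (chr5:30155003-30155302, + strand) and *Hadha*, which encodes the α subunit, start head to head and point away from each other. Capitals mark the 228 bases of the *Hadhb* window that also lie in the *Hadha* window (chr5:30154931-30155230, − strand).
Hadhb: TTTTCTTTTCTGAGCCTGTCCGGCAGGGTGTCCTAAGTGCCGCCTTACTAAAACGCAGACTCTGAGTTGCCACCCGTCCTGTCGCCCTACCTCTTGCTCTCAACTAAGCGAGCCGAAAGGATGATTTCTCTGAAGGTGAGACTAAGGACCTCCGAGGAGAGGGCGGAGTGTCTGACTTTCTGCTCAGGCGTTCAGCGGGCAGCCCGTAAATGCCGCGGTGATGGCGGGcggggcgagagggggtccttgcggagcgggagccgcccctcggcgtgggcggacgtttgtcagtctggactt

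Total counts ranged from 20851489 to 35143325, and replicate libraries of the 8 cultures had a fitted common coefficient of variation of 4.76%. Between the 2 libraries of a condition, chi-square values averaged 3.05 to 3.67 per gene in 5 conditions, 11.5 in iHEAs and 13.4 in fetal liver. These values exceed counting error alone, but libraries made from the same RNA, culture or tissue could also give them. The second iHEA library carries no usable number, and is called the unnumbered iHEA library. The adult liver libraries had TMM factors of 0.43 and 0.44, against values above 1 in the other 12 libraries. CPM in adult liver are therefore raised by the scaling and are not shares of all reads. Hepatocyte markers set the scale of the comparison with tissue. Their summed level over 8 genes was 548600 to 587100 CPM in adult liver, 10670 to 13520 CPM in fetal liver and 282 to 391 CPM in the cultures. In the cultures *Apoa1*, an apolipoprotein, gave most of it (257 ± 46.4 CPM in 3D and 296 ± 15 CPM in 2D, SD, n = 4 each). *Ttr* reached a mean of 81.5 CPM in 3D, and the other 6 markers, *Alb* among them, had means of 5.38 CPM or less in 2D and in 3D. Most of the defining hepatocyte markers were thus near 0 in the cultures, and the libraries are called by their culture names. In bulk RNA, fewer cells of a type and less RNA per cell cannot be told apart.

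**Figure D1:**
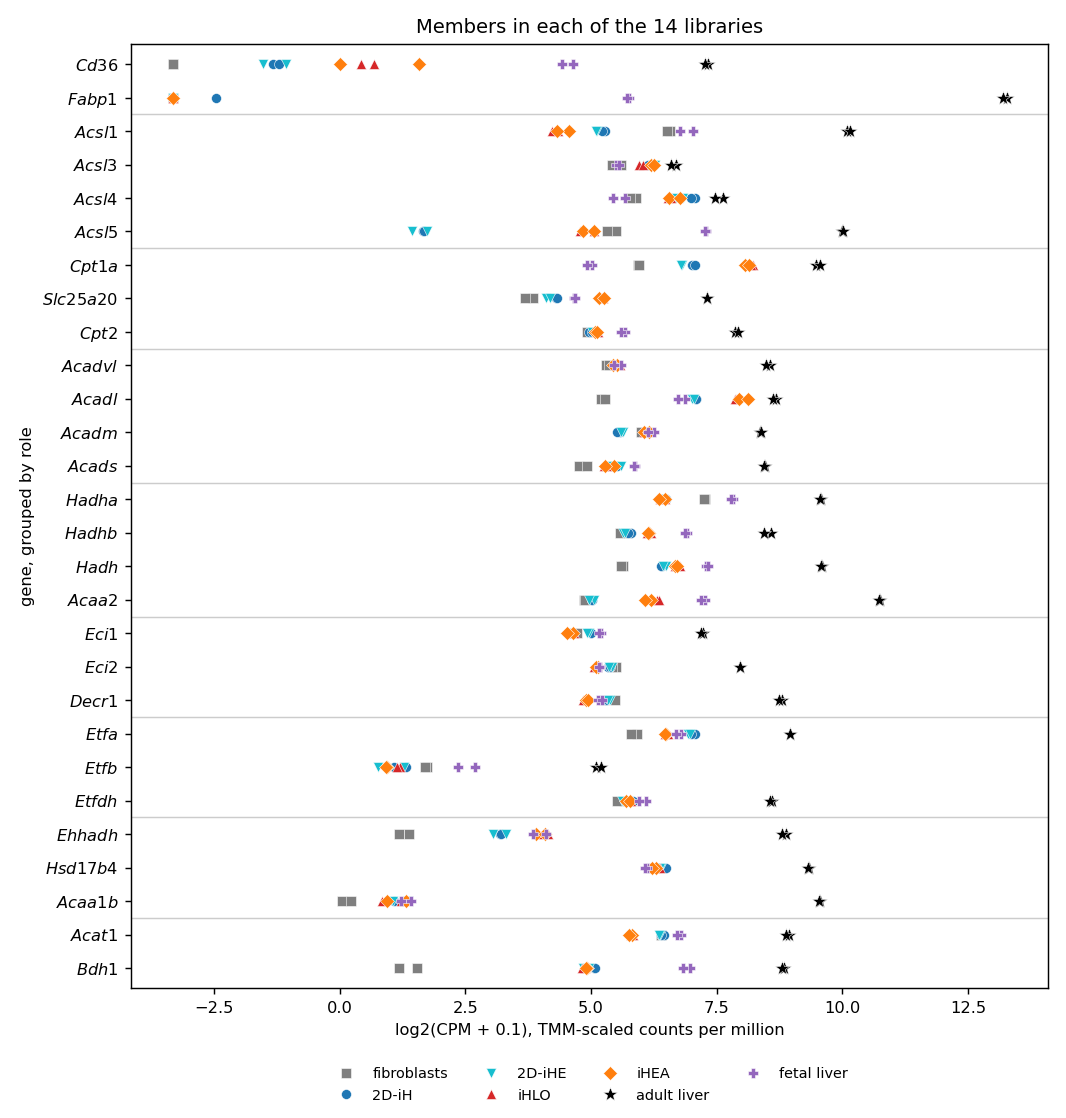
The plot of levels by library has log2(CPM + 0.1) on the x axis and the 28 genes by role on the y axis, with 1 point per library and a colour and shape per condition. Adult liver has the highest mean of all 28 genes on the TMM scale (with library totals alone *Acsl3*, *Acsl4*, *Cpt1a* and *Acadl* are no longer lower in iHLOs than in adult liver), and *Cd36*, *Fabp1*, *Etfb* and *Acaa1b* are below 3 CPM in the cultures.

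Whether 3D culture changed the pathway was asked first, with iHLOs and iHEAs (4 libraries) against 2D-iHs and 2D-iHEs (4 libraries). The carnitine shuttle rose in all of its 3 members, *Acsl5* and *Acaa2* rose, and *Acsl1*, *Acat1*, *Etfa* and the 3 enzymes for unsaturated fatty acids fell. Of 27 members tested, 11 were higher and 7 lower (edgeR quasi-likelihood test, Benjamini-Hochberg adjusted p under 0.05). Of all 13409 genes tested, 38.7% were higher and 37.2% lower, so the members' shares of 40.7% and 25.9% were read against a background in which most genes changed. The median log2 fold change was 0.03 over the members and 0.01 over all genes. With a log2 fold change of at least 1 in addition, 5 members were higher and 0 lower, against 12.7% and 11.3% of all genes. *Fabp1* did not pass the filter on low counts.

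**Figure D2:**
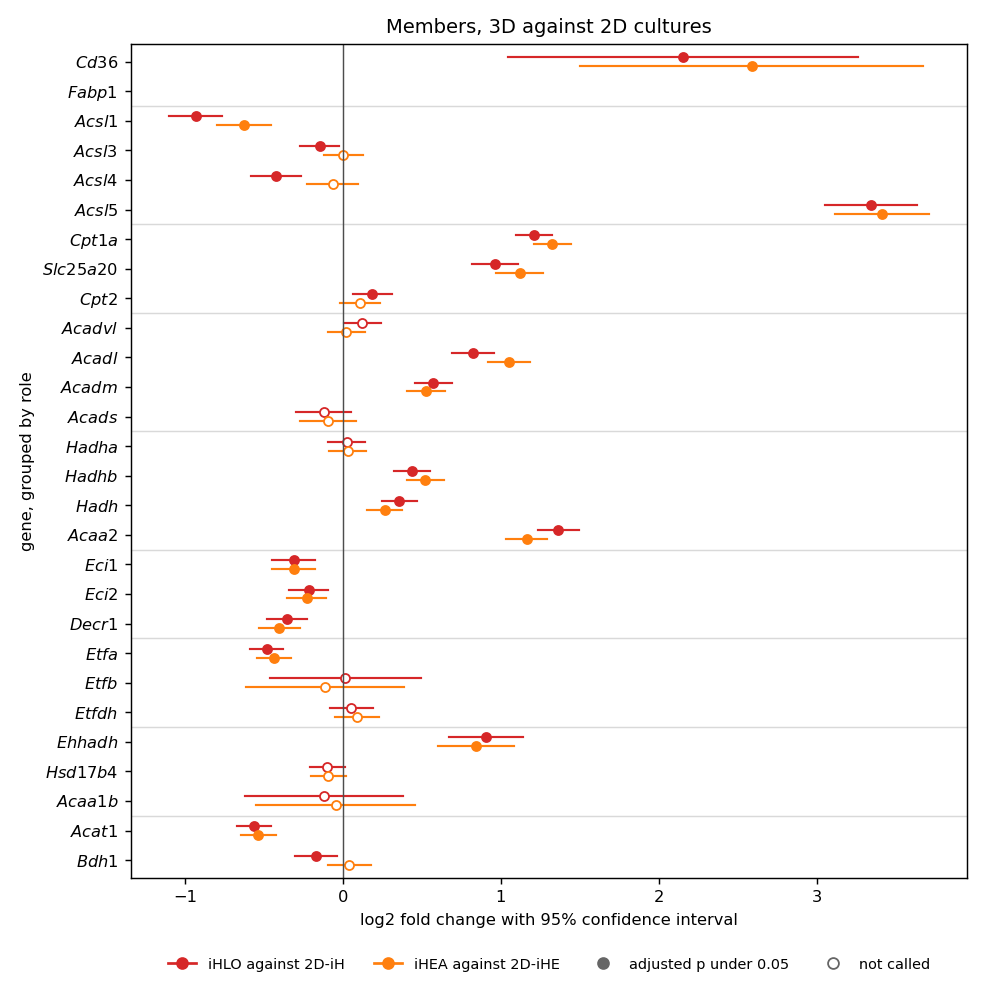
The plot of fold changes in 3D has the log2 fold change with its 95% confidence interval on the x axis and the genes by role on the y axis, for iHLOs against 2D-iHs (red) and iHEAs against 2D-iHEs (orange). Filled points have an adjusted p under 0.05 (edgeR), with *Acsl5* farthest to the right and *Acsl1* farthest to the left in both comparisons.

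Among uptake genes, *Cd36*, a fatty acid translocase of the plasma membrane, had 11, 11, 15 and 6 counts in the 2D libraries and 51, 41, 97 and 26 in the 3D libraries. These were 0.30, 0.34, 0.38 and 0.25 CPM in 2D and 1.52, 1.25, 2.87 and 0.91 CPM in 3D. The groups did not overlap, and *Cd36* was 5.24-fold higher in 3D (log2 fold change 2.39 ± 0.37 SE, edgeR adjusted p = 0.000107). The 2D levels were low, since 3 counts corresponded to 0.0854 to 0.144 CPM before scaling. *Fabp1*, the cytosolic fatty acid binding protein of liver, had 3 counts in 1 2D-iH library and 0 in the other 7 culture libraries.

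The 4 long-chain acyl-CoA synthetases did not move together. *Acsl5* was at 3.05, 3.08, 3.23 and 2.60 CPM in 2D and at 27.4, 33.2, 28.7 and 33.3 CPM in 3D. The groups were far apart, with a 10.4-fold rise in 3D (log2 fold change 3.38 ± 0.09 SE, edgeR adjusted p = 8.81e-11), the highest among the members tested. *Acsl1*, an isoform that is abundant in adult liver, was at 38.9, 37.4, 34.9 and 34 CPM in 2D and at 20.3, 18.5, 23.7 and 19.8 CPM in 3D. It was 1.72-fold lower in 3D without overlap (log2 fold change -0.78 ± 0.07 SE, edgeR adjusted p = 1.48e-06). *Acsl4*, which prefers arachidonic acid, was 1.19-fold lower (119.6 ± 13.7 CPM in 2D and 97.9 ± 7.68 CPM in 3D, SD, n = 4, edgeR adjusted p = 0.0142), and here the ranges of 104 to 135 CPM and 92.1 to 109 CPM overlapped. *Acsl3*, an isoform of the endoplasmic reticulum and lipid droplets, was not called (log2 fold change -0.07, 95% confidence interval -0.21 to 0.07), although the fit on all 14 libraries called it lower (-0.11, edgeR adjusted p = 0.0437).

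Per kilobase of exon, the family changed in composition more than in sum. Its summed level was 50.8 ± 2.93 CPM per kb in 2D and 48.1 ± 3.31 CPM per kb in 3D (SD, n = 4). *Acsl5* made up 1.39 ± 0.16% of that sum in 2D and 15 ± 1.16% in 3D, whereas *Acsl1* went from 17.1 ± 0.53% to 10.3 ± 1.22%. *Acsl3* and *Acsl4* together held most of the sum in all 8 culture libraries, with means of 37.4% and 44.1% in 2D and 36.5% and 38.2% in 3D. Adult liver had most of its sum in the other pair, with 46.8 ± 0.93% for *Acsl1*, 42.6 ± 0.13% for *Acsl5*, 6.17 ± 0.56% for *Acsl4* and 4.44 ± 0.24% for *Acsl3* (SD, n = 2). Fetal liver resembled adult liver in the share of *Acsl5* (42.8 ± 1.71%) and had less *Acsl1* (33.3 ± 2.3%). Fibroblasts had 41.1 ± 1.16% *Acsl1* and 18.3 ± 0.49% *Acsl5*. These shares within a library are not affected by the scaling between libraries.

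**Figure D3:**
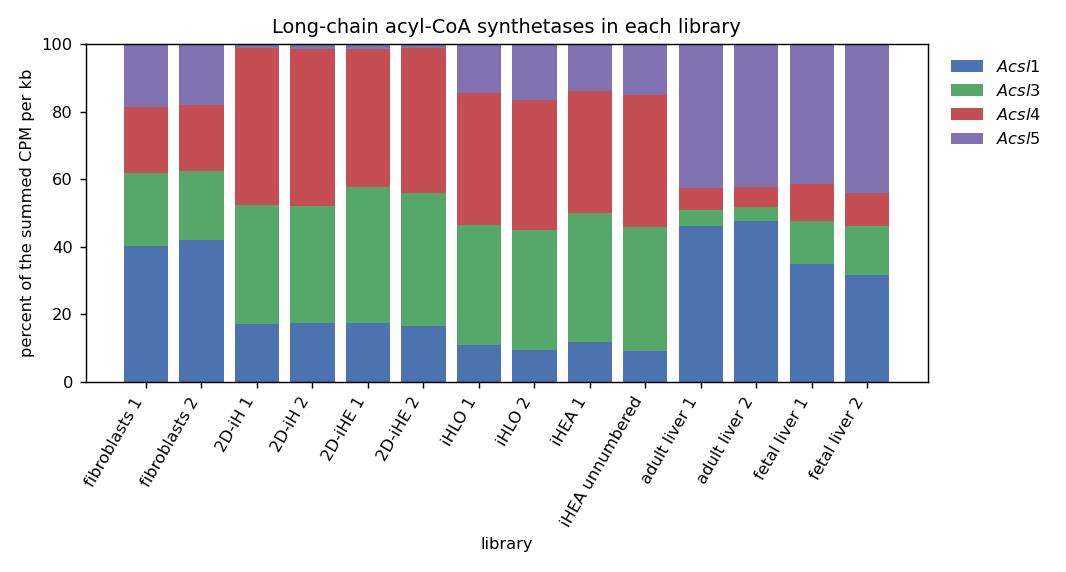
The plot of synthetase shares has 1 bar per library on the x axis and the percent of the summed CPM per kilobase on the y axis, split into *Acsl1*, *Acsl3*, *Acsl4* and *Acsl5*. The 4 two-dimensional libraries show 1.23 to 1.60% *Acsl5* and the 4 three-dimensional libraries 13.9 to 16.6%, while both livers are over 41% *Acsl5*.

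All 3 members of the carnitine shuttle rose in 3D. *Cpt1a*, whose outer membrane enzyme sets the rate at which long chains enter the mitochondrion, was at 129, 135, 113 and 111 CPM in 2D and at 300.4, 292, 266 and 283 CPM in 3D. The lowest 3D library lay well above the highest 2D library, and *Cpt1a* was 2.40-fold higher (log2 fold change 1.26 ± 0.07 SE, edgeR adjusted p = 1.13e-08). *Slc25a20*, the carnitine-acylcarnitine translocase, was at 17 to 19.8 CPM in 2D and at 35.8 to 38.4 CPM in 3D, a 2.05-fold rise (log2 fold change 1.04 ± 0.06 SE, edgeR adjusted p = 1.64e-08). *Cpt2*, the carnitine acyltransferase of the inner membrane, rose by only 1.11-fold (32.1 ± 0.66 and 34.6 ± 0.62 CPM, SD, n = 4, edgeR adjusted p = 0.0061). The ratio of *Cpt1a* to *Cpt2* per kilobase was 1.89 to 2.31 in 2D and 4.31 to 4.77 in 3D. It was 1.67 to 1.70 in adult liver and 0.34 to 0.35 in fetal liver.

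Of the 4 acyl-CoA dehydrogenases, which differ in the chain length they accept, *Acadl* and *Acadm* rose. *Acadl*, the long-chain enzyme, was at 135, 137, 129 and 132 CPM in 2D and at 235, 232, 248 and 279.7 CPM in 3D. This 1.92-fold rise had no overlap between groups (log2 fold change 0.94 ± 0.06 SE, edgeR adjusted p = 6.46e-08). *Acadm*, the medium-chain enzyme, went from 47.7 ± 1.56 to 67.9 ± 2.09 CPM (SD, n = 4), which was 1.46-fold (edgeR adjusted p = 2.92e-07). *Acadvl*, the very long-chain enzyme, and *Acads*, the short-chain enzyme, were not called, with 95% confidence intervals of the log2 fold change of -0.02 to 0.16 and -0.24 to 0.03. *Acadvl* was called higher without the unnumbered iHEA library (0.10, edgeR adjusted p = 0.0375) and with library totals alone (0.09), and *Acads* was called lower without the numbered iHEA library (-0.15, edgeR adjusted p = 0.0423) and in the fit on all 14 libraries (-0.15). Per kilobase *Acadl* made up 48.6 to 51.6% of the 4 genes in 2D and 61.7 to 66% in 3D, against 28.6 to 29% in adult liver. Of the exon bases of *Acadvl*, 45% overlap exons of *Dvl2* on the other strand, and how strand was counted is not given in the sources used here.

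Among the enzymes that complete the cycle, *Acaa2*, the mitochondrial 3-ketoacyl-CoA thiolase, was at 32.1, 32.5, 33.1 and 30.9 CPM in 2D and at 79.8, 81.6, 73.5 and 66.9 CPM in 3D. It was 2.41-fold higher in 3D without overlap (log2 fold change 1.27 ± 0.06 SE, edgeR adjusted p = 4.48e-09). *Hadh*, the 3-hydroxyacyl-CoA dehydrogenase for shorter chains, was 1.24-fold higher (edgeR adjusted p = 2.05e-05). The 2 subunits of the trifunctional protein differed. *Hadhb* was at 55.2, 52.9, 49.7 and 51.2 CPM in 2D and at 69.3, 72.7, 71.2 and 70.2 CPM in 3D, a 1.39-fold rise (edgeR adjusted p = 6.46e-07). *Hadha* was at 84.9 to 89.9 CPM in 2D and at 81.5 to 89.1 CPM in 3D and was not called (log2 fold change 0.03, 95% confidence interval -0.06 to 0.11). The ratio of *Hadha* to *Hadhb* per kilobase was 1.52 to 1.64 in fibroblasts, 0.83 to 0.90 in 2D, 0.60 to 0.65 in 3D, 0.97 to 0.98 in fetal liver and 1.02 to 1.13 in adult liver. The pair with the shared promoter region printed above thus had unequal changes, and 14.8% of the 100-base stretches of *Hadhb* also occur in the predicted gene *Gm13910*, so its counts carry that uncertainty.

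The enzymes that prepare unsaturated fatty acids fell in all 3 cases. *Eci1* and *Eci2*, 2 enoyl-CoA isomerases, were 1.24-fold and 1.17-fold lower in 3D (edgeR adjusted p = 6.20e-05 and 0.000303). *Decr1*, the 2,4-dienoyl-CoA reductase, was at 36.9 to 41.3 CPM in 2D and at 28.5 to 30.7 CPM in 3D, which was 1.30-fold lower (log2 fold change -0.38 ± 0.05 SE, edgeR adjusted p = 2.52e-05). None of these 3 changes reached 2-fold.

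In electron transfer, *Etfa*, the α subunit of the electron transfer flavoprotein, was at 134.7, 127, 122 and 126 CPM in 2D and at 89.3, 92.7, 89.4 and 88.7 CPM in 3D. It was 1.38-fold lower without overlap (log2 fold change -0.46 ± 0.04 SE, edgeR adjusted p = 5.66e-07). *Etfdh*, the dehydrogenase that passes its electrons to ubiquinone, was not called (95% confidence interval -0.03 to 0.17). *Etfb*, the β subunit, had 39 to 93 counts per culture library and was not called (95% confidence interval -0.39 to 0.31). Its partner *Etfa* was 26.1 to 50-fold higher per kilobase in the cultures and 8.66 to 9.41-fold higher in adult liver. Of the exon bases of *Etfb*, 69.1% also lie in exons of the predicted gene *Gm45233* on the same strand, so reads there can belong to either gene and the level of *Etfb* is uncertain.

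Of the peroxisomal enzymes, *Ehhadh*, the bifunctional enzyme of the straight-chain pathway, rose from 8.99, 9.16, 9.79 and 8.17 CPM in 2D to 17.6, 15.4, 14.9 and 16.9 CPM in 3D. That was 1.84-fold without overlap (log2 fold change 0.88 ± 0.08 SE, edgeR adjusted p = 1.03e-06). *Hsd17b4*, the other bifunctional enzyme, had a log2 fold change of -0.10 (edgeR adjusted p = 0.0628), and it was called lower without either 2D-iHE library or iHLO library 2 (-0.12 in all 3). It was also called lower with DESeq2 size factors (edgeR adjusted p = 0.047), in the DESeq2 Wald test (0.049) and in the fit on all 14 libraries (log2 fold change -0.13, edgeR adjusted p = 0.00647). *Acaa1b*, a peroxisomal thiolase, was at 1.69 to 2.45 CPM in the 8 culture libraries and was not called. It shares 26% of its 100-base stretches with its near copy *Acaa1a*, which stood at 54.6 to 69 CPM there, so its low counts are uncertain.

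In ketone synthesis, *Acat1*, the mitochondrial acetoacetyl-CoA thiolase, was at 87.8, 83.8, 82.3 and 81.2 CPM in 2D and at 55.3, 57.4, 56 and 54.1 CPM in 3D. This was a 1.46-fold fall with no overlap (log2 fold change -0.55 ± 0.04 SE, edgeR adjusted p = 8.11e-08). *Bdh1*, which interconverts acetoacetate and β-hydroxybutyrate, was at 31.6 ± 2.41 CPM in 2D and 29.4 ± 0.92 CPM in 3D (SD, n = 4) and was not called (edgeR adjusted p = 0.277). *Oxct1*, the transferase by which tissues other than liver use ketone bodies, was 2.08-fold lower in 3D (243 to 274 CPM in 2D and 118 to 125 CPM in 3D, edgeR adjusted p = 1.98e-09).

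**Figure D4:**
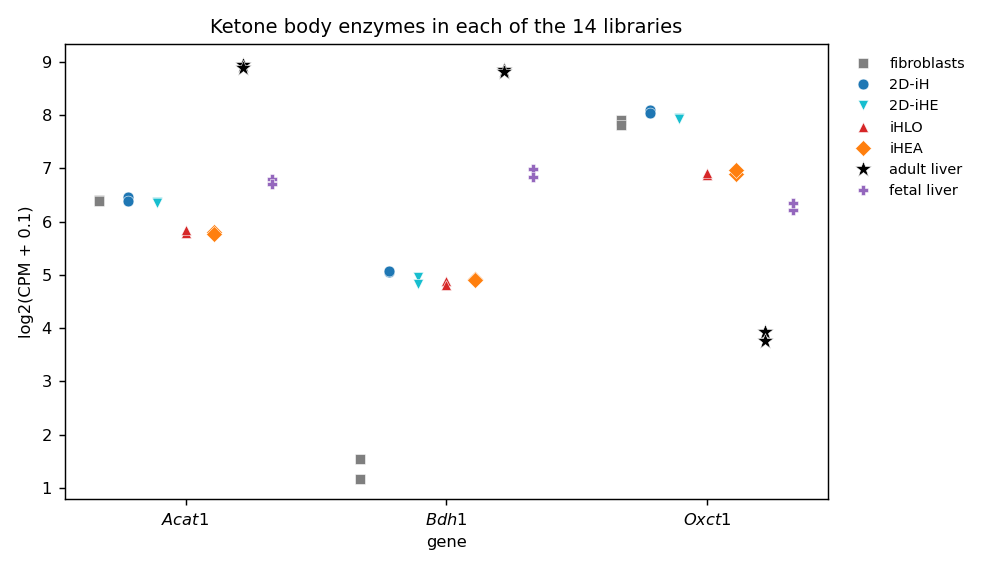
The plot of ketone body enzymes has the genes on the x axis and log2(CPM + 0.1) on the y axis, with 1 point per library and a colour and shape per condition. *Oxct1* is at 118 to 274 CPM in the cultures and at 13.5 and 15.2 CPM in adult liver.

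Other genes around the pathway were counted in the same way. Of 72 related genes of fatty acid oxidation and its control, 59 were tested, 27 were higher and 18 lower in 3D, against 38.7% and 37.2% of all genes, with a median log2 fold change of 0.17. *Acss1*, a mitochondrial acetyl-CoA synthetase, and *Acsm3*, a medium-chain acyl-CoA synthetase, were 21.5-fold and 18.6-fold higher (edgeR adjusted p = 1.69e-09 and 5.11e-08). *Cpt1c*, the brain form of the carnitine acyltransferase, was 6.18-fold lower (edgeR adjusted p = 6.55e-11). *Fabp4*, the fatty acid binding protein of adipocytes, had 45, 41, 64 and 45 counts in 2D, 7 and 0 in iHLOs and 0 in both iHEA libraries. It was called lower, but it passed the filter on low counts only through the 2D libraries, where it was high. The receptor gene *Ppara* was at 0.18 to 0.56 CPM in the 8 culture libraries, against 158 and 170.2 CPM in adult liver. It was not called in 3D (edgeR adjusted p = 0.0585), and *Ppargc1a* and *Pdk4* did not pass the filter.

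Of 20 genes of fatty acid synthesis, 19 were tested. Of these, 5 were higher and 10 lower in 3D, against 38.7% and 37.2% of all genes, with a median log2 fold change of -0.38. *Fads2*, a desaturase, was 5.03-fold lower, and *Dgat2*, an enzyme of triglyceride synthesis, was 8.40-fold higher (edgeR adjusted p = 2.07e-10 and 5.28e-11). *Acacb*, the acetyl-CoA carboxylase whose product inhibits the carnitine shuttle, was called lower at low counts, with 15, 13, 21 and 13 in 2D and 3, 3, 3 and 5 in 3D. It passed the filter on low counts only through the 2D libraries, where it was high. Of 30 mitochondrial genes outside the pathway, 3 were higher and 18 lower, with a median of -0.15, against the same shares of all genes. None changed 2-fold, against 12.7% of all genes higher and 11.3% lower. The protease gene *Lonp1* had the largest fall among them at 1.91-fold (edgeR adjusted p = 8.49e-09). The summed level of those 30 genes was 6484 to 7054 CPM in 2D and 4891 to 5186 CPM in 3D. That of the 28 members was 1399 to 1490 CPM in 2D and 1712 to 1760 CPM in 3D. Among them *Cpt1a* went from a mean of 122 to 285 CPM and *Acadl* from 133 to 249 CPM. By role, the sums for uptake, the carnitine shuttle, the dehydrogenases and the later mitochondrial steps rose. Those for unsaturated fatty acids, electron transfer and ketone bodies fell, and those for synthetases and peroxisomal enzymes overlapped.

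Markers of other states moved with the change from 2D to 3D, in which 38.7% of all genes were higher and 37.2% lower. The summed level of 6 proliferation genes was 1127 to 1228 CPM in 2D and 204 to 242 CPM in 3D, with 6 of 6 lower. For 8 endothelial genes it was 419 to 489 CPM in 2D and 876 to 1359 CPM in 3D, with 5 of 6 tested genes higher. Of the 5, at least *Pecam1* passed the filter on low counts only through the 3D libraries. *Kdr* and *Erg* were not tested. *Kdr* had 25, 10, 20 and 11 counts in 2D and 2, 4, 0 and 0 in 3D. *Erg* had 1 count in 2D-iH library 1 and none in the other culture libraries. For 6 cholangiocyte genes it was 1064 to 1311 CPM and 1175 to 1487 CPM, with 3 higher and 2 lower. For 8 fibroblast genes it was 3.76 to 12.5 CPM and 2.42 to 4.76 CPM, with 1 higher and 2 lower of 3 tested genes and *Col1a2*, *Lum* and *Thy1* at 0 in 3D. The higher one was *Pdgfrb*, which passed the filter on low counts only through the 3D libraries, with 0, 1, 2 and 4 counts in 2D and 44, 41, 75 and 48 in 3D. For 8 hepatocyte genes it was 282 to 316 CPM and 282 to 391 CPM, with 2 of 4 tested genes higher and none called lower, while within each arm 1 was lower. Of the 2, *Tat* passed the filter on low counts only through the 3D libraries. *Alb* had a log2 fold change of -2.20 (95% confidence interval -4.84 to 0.43), with 210 counts in 2D-iH library 1 and 2 to 20 in the other 7 culture libraries. The part of these shifts in the members' changes was not tested.

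3D culture was also compared within each arm. In iHLOs against 2D-iHs, 11 members were higher and 9 lower of 27 tested, against 36.9% and 35.3% of all genes (edgeR, adjusted p under 0.05), and 4 and 0 by at least 2-fold, against 13.4% and 11.3%. In iHEAs against 2D-iHEs, 10 were higher and 6 lower, against 36% and 34.9% of all genes, and 6 and 0 by at least 2-fold, against 12.6% and 11.5%. The log2 fold changes of *Cpt1a* were 1.21 ± 0.05 SE and 1.33 ± 0.05 SE, those of *Acaa2* 1.36 ± 0.06 SE and 1.16 ± 0.06 SE, and those of *Acsl5* 3.35 ± 0.13 SE and 3.41 ± 0.14 SE. *Cpt2*, *Acsl3*, *Acsl4* and *Bdh1* were called in iHLOs against 2D-iHs but not in iHEAs against 2D-iHEs, and the difference between the arms was not called for any of them. *Acsl3* lost its call without 2D-iH library 1 (log2 fold change -0.10) or iHLO library 1 (-0.11), *Cpt2* without 2D-iH library 1 (0.14) or iHLO library 2 (0.18), and *Bdh1* without library 2 of either condition (-0.17 and -0.13). Calls were also lost without a filter for *Acsl3* and *Bdh1* (edgeR adjusted p = 0.0943 and 0.0895), with library totals alone for *Acsl3* (0.0755), and in the DESeq2 Wald test for *Cpt2* and *Bdh1* (DESeq2 adjusted p = 0.0637 and 0.0722). *Acsl4* had log2 fold changes of -0.43 in iHLOs against 2D-iHs and -0.06 in iHEAs against 2D-iHEs, and without the unnumbered iHEA library the latter was -0.18 and called lower (edgeR adjusted p = 0.0205). *Acsl1* fell in both, with log2 fold changes of -0.93 and -0.63. Both arms enter the 3D against 2D comparison, so they are no separate support for it.

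Whether iECs changed the pathway was asked in 3D, in 2D and by the difference between both. In iHEAs against iHLOs, 0 of 27 members were called, against 1.19% of all genes higher and 1.07% lower. Of all 13409 genes 303 were called here, and 90 of 13453 in the fit on the 4 libraries of the comparison. At an unadjusted p under 0.05 (edgeR) there were 3 members, against 1702 of all 13409 genes. The 3 were *Acsl3* (log2 fold change 0.23, 95% confidence interval 0.10 to 0.35), *Acaa2* (-0.20, -0.32 to -0.07) and *Acadl* (0.18, 0.05 to 0.31). *Cd36* had the widest interval (-0.39 to 1.34), since the 2 iHEA libraries were at 2.87 and 0.91 CPM and enclosed the iHLO libraries at 1.52 and 1.25 CPM. Without the unnumbered iHEA library, *Cd36* was called higher with a log2 fold change of 1.05. Without the other iHEA library, *Acsl3* (0.26), *Acadl* (0.27) and *Acaa2* (-0.26) were called, so the absence of calls rested on both libraries. The other members had log2 fold changes between -0.24 (*Etfb*) and 0.17 (*Acsl1*). Of the related genes, *Slc16a1*, a carrier of lactate and ketone bodies, was 1.17-fold lower in iHEAs (edgeR adjusted p = 0.0275).

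In 2D-iHEs against 2D-iHs, 0 members were higher and 1 was lower, against 4.26% and 3.92% of all genes, with 4 at an unadjusted p under 0.05. By at least 2-fold, 0 members were called, against 0.246% higher and 0.298% lower. *Cpt1a* was at 129 and 135 CPM in 2D-iHs and at 113 and 111 CPM in 2D-iHEs. Both 2D-iHE libraries were lower, by 1.17-fold (log2 fold change -0.22 ± 0.05 SE, edgeR adjusted p = 0.0241), and the call was lost when any of the 4 libraries was left out, with log2 fold changes of -0.26 to -0.18. *Acsl4* was not called (log2 fold change -0.25, edgeR adjusted p = 0.0532), but it was called lower, at -0.26 to -0.25, without a filter, with a filter of at least 5, in the DESeq2 Wald test, in the fit on 4 libraries, and in the numbered libraries with and without the replicate block (adjusted p = 0.000378 to 0.0477, edgeR or DESeq2). For the difference of the co-culture effect between 3D and 2D, 0 of 27 members were called, with 5 at an unadjusted p under 0.05, against 1.52% of all genes higher and 1.62% lower. The largest of the 5 was *Acsl4* (log2 difference 0.36, 95% confidence interval 0.13 to 0.59, edgeR adjusted p = 0.0944). *Acsl4* was called without a filter (0.35) and in the DESeq2 Wald test (0.36). *Acsl4* (0.48) and *Acadl* (0.32) were called without the numbered iHEA library, and *Acsl1* (0.42) without the unnumbered one. Markers of other cells also differed with co-culture. In 2D-iHs and 2D-iHEs the endothelial sums were 481 to 489 and 419 to 431 CPM (3 lower of 6 tested), the hepatocyte sums 296 to 316 and 282 to 306 CPM (2 lower of 4), the cholangiocyte sums 1228 to 1311 and 1064 to 1184 CPM (1 lower of 6) and the fibroblast sums 3.76 to 4.43 and 11.3 to 12.5 CPM (1 higher of 3). In iHLOs and iHEAs the endothelial sums were 1215 to 1359 and 876 to 944 CPM (4 lower of 6 tested), the hepatocyte sums 364 to 391 and 282 to 342 CPM (1 lower of 4), the cholangiocyte sums 1175 to 1244 and 1472 to 1487 CPM (3 higher of 6) and the fibroblast sums 2.92 to 4.01 and 2.42 to 4.76 CPM (1 lower of 3). No proliferation gene of 6 was called in either comparison, and the part of these cells was not tested. A p that misses the threshold does not show that co-culture left a gene as it was, and in iHEAs against iHLOs the interval was widest for *Cd36*, *Acaa1b* (-0.39 to 0.63) and *Etfb* (-0.74 to 0.25).

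The livers show the range that the pathway covers in tissue. All 28 members were higher in adult than in fetal liver, and all 28 by at least 2-fold (edgeR, adjusted p under 0.05), against 40% of all 14121 genes higher and 43.8% lower, and 25.3% and 26.9% with the 2-fold limit. The median log2 fold change was 2.64 over the members and -0.10 over all genes. With library totals in place of TMM scaling the median of all genes moved to -1.52 (log2), and 27 members stayed higher while *Acsl3* was lower (-0.28). Values below are on the TMM scale. The 7 tested erythroid genes were lower in adult liver, with sums over 8 genes of 614 to 662 CPM in adult and 36010 to 37620 CPM in fetal liver. The sum over 6 Kupffer cell genes was 1300 to 1385 CPM in adult and 239 to 271 CPM in fetal liver, and that over 6 proliferation genes 90.8 to 92.9 CPM and 3209 to 3619 CPM. The 8 fibroblast genes summed to 229 to 238 CPM in adult and 1796 to 3014 CPM in fetal liver, with 7 of 7 tested genes lower in adult liver by at least 2-fold. The 6 cholangiocyte genes summed to 231 to 234 CPM and 48.5 to 59.2 CPM (1 higher and 3 lower), and the 8 endothelial genes to 339.8 to 340 CPM and 324 to 327 CPM (3 higher and 2 lower). The part of these cells in the members' differences was not tested.

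By role, *Fabp1* went from 54.1 and 52.6 CPM in fetal liver to 9883 and 9394 CPM in adult liver, which was 184-fold (log2 fold change 7.53 ± 0.12 SE, edgeR adjusted p = 4.58e-14). *Cd36* went from 24.8 and 21.4 CPM to 160.3 and 155 CPM, which was 6.95-fold (edgeR adjusted p = 2.30e-10). Among the synthetases *Acsl1* rose 9.48-fold, *Acsl5* 6.73-fold, *Acsl4* 4.04-fold and *Acsl3* 2.21-fold, and *Acsl3* had the smallest change of the 28. *Cpt1a* went from 32.3 and 30.4 CPM to 711 and 751 CPM. It was 23.8-fold higher in adult liver (log2 fold change 4.57 ± 0.07 SE, edgeR adjusted p = 1.02e-17), whereas its shuttle partners *Slc25a20* and *Cpt2* were 6.34-fold and 4.87-fold higher. The ratio of *Cpt1a* to *Cpt2* per kilobase was thus 1.67 to 1.70 in adult and 0.344 to 0.347 in fetal liver.

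The dehydrogenases rose between 3.68-fold (*Acadl*) and 8.13-fold (*Acadvl*), and the later mitochondrial enzymes between 3.15-fold (*Hadhb*) and 11.6-fold (*Acaa2*). *Eci1*, *Eci2* and *Decr1* rose 4.18-fold, 7.11-fold and 12.3-fold, and *Etfa*, *Etfb* and *Etfdh* rose 4.72-fold, 6.35-fold and 5.98-fold. The peroxisomal enzymes differed widely from each other. *Acaa1b* went from 2.58 and 2.25 CPM to 749 and 743 CPM, which was 314-fold and the largest change of the 28 (log2 fold change 8.29 ± 0.10 SE, edgeR adjusted p = 3.75e-18). *Ehhadh* was 29.7-fold and *Hsd17b4* 9.55-fold higher. The ratio of *Acaa1a* to *Acaa1b* per kilobase was 18.2 to 23.7 in fetal liver and 0.54 to 0.56 in adult liver, and it was 24.4 to 31.8 in the cultures. For ketone synthesis, *Acat1* was 4.55-fold and *Bdh1* 3.84-fold higher in adult liver (edgeR adjusted p = 2.72e-15 and 1.17e-13). *Oxct1* was 5.35-fold lower in adult liver (edgeR adjusted p = 9.02e-14).

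Of the 66 related genes tested, 55 were higher and 7 lower in adult liver, against 40% and 43.8% of all genes. Their median log2 fold change was 2.78. *Slc27a5*, a bile acid and very long-chain acyl-CoA synthetase, was 331-fold higher, and *Acss1* was 79-fold lower (edgeR adjusted p = 4.85e-18 and 2.12e-15). *Ppara* was 31.2-fold higher (edgeR adjusted p = 1.05e-15). Of the 20 genes of fatty acid synthesis, 19 were higher, against the same 40% of all genes, with a median of 3.22. Of the 30 mitochondrial genes outside the pathway, 21 were higher and 6 lower, against the same 40% and 43.8%, with a median of 0.31. Of the 21, 6 were higher by at least 2-fold, against 25.3% of all genes.

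**Figure D5:**
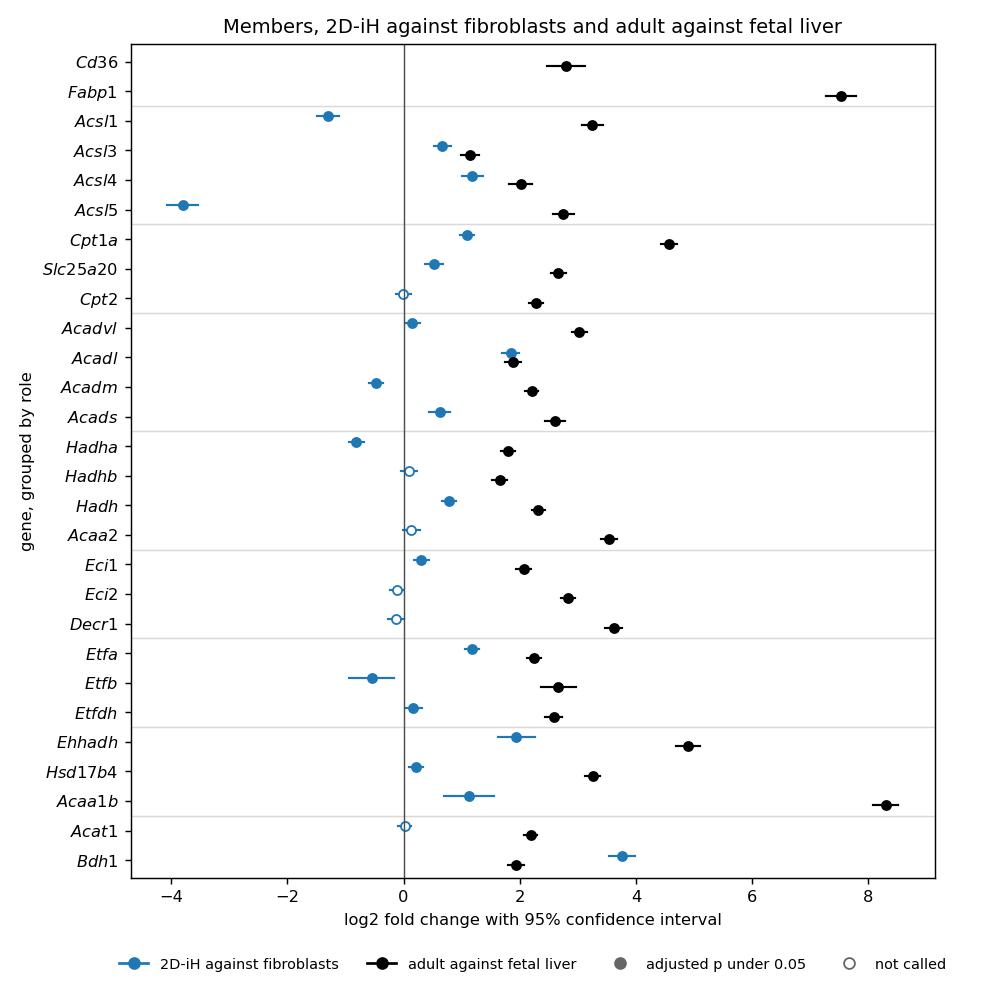
The plot of fold changes between cell states has the log2 fold change with its 95% confidence interval on the x axis and the genes by role on the y axis, for 2D-iHs against fibroblasts (blue) and adult against fetal liver (black), on the TMM scale. Every black point lies to the right of 0 (*Acsl3* would be lower in adult liver with library totals alone), the blue points lie on both sides, and *Cd36* and *Fabp1* are left out of the blue series because fibroblasts had no counts of them.

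The cultured iHepSCs were compared with fibroblasts, the cell type of their origin, as 2D-iHs against fibroblasts. Of 28 members tested, 16 were higher and 5 lower in 2D-iHs (edgeR, adjusted p under 0.05), against 45.7% and 38.2% of all 14121 genes. With at least 2-fold in addition, 8 were higher and 2 lower, against 23.7% and 21.5%. *Cd36*, which is among the 16 and the 8, had no count in fibroblasts, and it passed the filter on low counts through other libraries. *Fabp1* passed only through the liver libraries. The median log2 fold change was 0.26 over the members and 0.11 over all genes. The fibroblast markers were at 28950 to 30460 CPM in sum in fibroblasts and at 3.76 to 4.43 CPM in 2D-iHs, while the sum over the 8 endothelial genes was 39.2 to 39.6 CPM and 481 to 489 CPM, with 5 higher and 1 lower. *Cdh5* gave most of the sum in 2D-iHs (443 and 437 CPM, against 0 and 0.0326 CPM in fibroblasts), whereas *Erg* was at 34.6 and 35.7 CPM in fibroblasts and at 0.0272 and 0 CPM in 2D-iHs. The 6 proliferation genes were all called higher in 2D-iHs, with sums of 595 to 613 CPM in fibroblasts and 1154 to 1228 CPM in 2D-iHs. For the 6 cholangiocyte genes the sums were 463 to 467 CPM and 1228 to 1311 CPM, with 4 higher and 2 lower. Kupffer cell genes were below 3 CPM in sum in both conditions, and so were erythroid genes. Their part in the members' changes was not tested.

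The synthetases again split. *Acsl5* fell from 45 and 39.9 CPM in fibroblasts to 3.05 and 3.08 CPM in 2D-iHs, which was 13.9-fold (log2 fold change -3.80 ± 0.12 SE, edgeR adjusted p = 1.37e-13). *Acsl1* fell 2.46-fold (edgeR adjusted p = 7.86e-10), whereas *Acsl4* and *Acsl3* rose 2.28-fold and 1.59-fold (edgeR adjusted p = 3.42e-09 and 1.85e-07). In the 3D cultures *Acsl5* was at 27.4 to 33.3 CPM, below both fibroblast libraries and above all 2D libraries.

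*Bdh1* had the largest fold change among the members with counts in both conditions that rose. It was at 2.15 and 2.81 CPM in fibroblasts and at 33.2 and 33.7 CPM in 2D-iHs, which was 13.5-fold higher (log2 fold change 3.76 ± 0.10 SE, edgeR adjusted p = 1.66e-14). *Acat1* was at 84.2 and 83.8 CPM in fibroblasts and at 87.8 and 83.8 CPM in 2D-iHs, and was not called. *Cd36* had 0 counts in both fibroblast libraries and 11 in each 2D-iH library, so it was at least 3.24-fold higher in 2D-iHs against a floor of 3 counts per library. *Fabp1* was at or under 3 counts in all 4 libraries, and no fold is given.

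*Acadl* rose 3.60-fold, from 36.8 and 38.5 CPM to 135 and 137 CPM (edgeR adjusted p = 6.12e-13), while *Acadm* was 1.39-fold lower (edgeR adjusted p = 9.35e-07). *Cpt1a* rose 2.13-fold and *Slc25a20* 1.44-fold (edgeR adjusted p = 5.57e-11 and 4.12e-06), and *Cpt2* was not called. *Etfa* rose 2.25-fold (edgeR adjusted p = 1.90e-11). The trifunctional pair again differed, with *Hadha* 1.75-fold lower (154 and 152 CPM to 89.9 and 85.1 CPM, edgeR adjusted p = 1.98e-09) and *Hadhb* not called (log2 fold change 0.10, 95% confidence interval -0.04 to 0.23). *Ehhadh* rose 3.85-fold and *Acaa1b* 2.18-fold from levels of 2.33 ± 0.25 and 1 ± 0.11 CPM (SD, n = 2, edgeR adjusted p = 6.81e-09 and 9.35e-05). *Acads*, *Hadh*, *Eci1*, *Hsd17b4*, *Acadvl* and *Etfdh* were also called higher, by 1.11-fold to 1.72-fold, and *Etfb* lower by 1.46-fold. *Acadvl* and *Etfdh* lost the call with DESeq2 size factors, where the median of all genes moved to 0.02 (log2). There *Eci2* and *Decr1*, not called before (log2 fold changes of -0.12 and -0.13), were called lower (-0.21 for both, edgeR adjusted p = 0.00184 and 0.00612). Both were also called lower in the DESeq2 Wald test, with a filter of at least 5, in the fit on 4 libraries and without fibroblast library 2. With a filter of at least 5, *Acat1* (-0.14) and *Cpt2* (-0.17) were called lower too (edgeR adjusted p = 0.0155 and 0.0136). Without a filter *Hadhb* was called higher (0.17, edgeR adjusted p = 0.0372), and *Acaa2* (0.14 to 0.21) was called higher without a filter, with library totals alone, and in the numbered libraries with and without the replicate block (edgeR adjusted p = 0.0208 to 0.044). *Hsd17b4* lost its call in the DESeq2 Wald test (DESeq2 adjusted p = 0.0516) and with a filter of at least 5 (edgeR adjusted p = 0.377). *Acadvl* also lost it without either library of either condition (edgeR adjusted p = 0.0607 to 0.231), *Etfdh* without fibroblast library 2 (0.364) or 2D-iH library 1 (0.282), *Hsd17b4* without fibroblast library 2 (0.0683) and *Etfb* without fibroblast library 1 (0.0501) or 2D-iH library 1 (0.109).

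Of the 66 related genes, 27 were higher and 26 lower in 2D-iHs, against 45.7% and 38.2% of all genes. *Acox2*, the oxidase of branched chains and bile acid precursors, was 144-fold higher (0.25 and 0.20 CPM to 32.4 and 33.2 CPM, edgeR adjusted p = 1.93e-14). *Pdk4*, a kinase that inhibits pyruvate dehydrogenase, had 176 and 144 counts in fibroblasts and 0 in all 4 two-dimensional libraries. *Phyh*, the first enzyme of phytanic acid α-oxidation, had 1187 and 1018 counts in fibroblasts, 3 and 0 in 2D-iHs and 0 to 7 in the other culture libraries. Fibroblasts were thus at least 358-fold higher than 2D-iHs in *Phyh*, against 3 counts per library, and *Phyh* was at 2166 and 2130 CPM in adult liver. Of 30 mitochondrial genes outside the pathway, 27 were higher and 1 lower, against the same 45.7% and 38.2% of all genes. Their median log2 fold change was 0.84, against 0.26 for the members.

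The distance of the organoids from mature tissue was measured as iHLOs against adult liver. All 28 members were lower in iHLOs (edgeR, adjusted p under 0.05), against 45.7% of all genes higher and 39.2% lower. With at least 2-fold in addition, 0 were higher and 26 lower, against 26.7% and 26.1%. *Fabp1* passed the filter on low counts only through the liver libraries. The median log2 fold change was -3.02 over the members and 0.13 over all genes. Markers of other cells moved as well. Summed levels in iHLOs and adult liver were 0.396 to 0.564 and 1300 to 1385 CPM for 6 Kupffer cell genes, and 0.852 to 1.16 and 614 to 662 CPM for 8 erythroid genes. They were 1215 to 1359 and 339.8 to 340 CPM for 8 endothelial genes (3 higher and 5 lower in iHLOs), 1175 to 1244 and 231 to 234 CPM for 6 cholangiocyte genes (4 higher and 2 lower), and 214 to 242 and 90.8 to 92.9 CPM for 6 proliferation genes (6 higher). The 8 fibroblast genes were at 2.92 to 4.01 and 229 to 238 CPM, and the part of all these cells in the members' differences was not tested. With library totals alone the median of all genes moved to 1.56 (log2), 24 members stayed lower, and *Acsl3* (0.75), *Acadl* (0.61) and *Acsl4* (0.40) were higher, with *Cpt1a* not called (0.09). Those 4 were also the members with the smallest differences on the TMM scale, at 1.61-fold (*Acsl3*), 1.78-fold (*Acadl*), 2.04-fold (*Acsl4*) and 2.55-fold (*Cpt1a*) lower.

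The other members were at least 4-fold lower. *Fabp1* had 0 counts in both iHLO libraries and was at least 105600-fold higher in adult liver against a floor of 3 counts per library. *Acaa1b* was 393-fold, *Cd36* 117-fold, *Acsl1* 59.2-fold, *Acsl5* 35-fold and *Ehhadh* 28.7-fold lower in iHLOs. *Bdh1* was 16.2-fold and *Acat1* 8.80-fold lower, while *Oxct1* was 8.04-fold higher (edgeR adjusted p = 4.98e-15). *Oxct1*, whose product uses ketone bodies, was at 117.6 and 120.3 CPM in iHLOs and at 15.2 and 13.5 CPM in adult liver. Among the 30 mitochondrial genes outside the pathway the median was -1.05, with 4 higher and 24 lower, against 45.7% and 39.2% of all genes.

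Against fetal liver, which was compared by levels and not tested, the median member stood at 75.5% of the fetal mean in 3D, 74.8% in 2D and 59.7% in fibroblasts. Both libraries of iHLOs and both of iHEAs exceeded both fetal libraries for 6 members, which were *Acsl3*, *Acsl4*, *Cpt1a*, *Slc25a20*, *Acadl* and *Hsd17b4*. No such count, nor that of lowest means below, was made over all genes. Fetal liver also held erythroid genes at 36010 to 37620 CPM and proliferation genes at 3209 to 3619 CPM in sum. The part of these cells was not tested. *Cpt1a* was at 946% of the fetal mean in iHLOs and at 421% in 2D-iHs, and already at 197% in fibroblasts. *Slc25a20* was at 147% of the fetal mean in iHLOs and at 77.8% in 2D-iHs. *Cd36* at 5.98%, *Acsl1* at 16.2%, *Acsl5* at 19.5% and *Bdh1* at 24% of the fetal mean in iHLOs, and *Fabp1* without a count, stood at the other end. Fibroblasts had the lowest mean of the 7 conditions for 16 of the 28 members, among them *Fabp1*, for which 2D-iHEs, iHLOs and iHEAs were at 0 as well. The lowest mean was in iHEAs for 4 members (*Hadha*, *Eci1*, *Etfb* and *Acat1*), in iHLOs for 3 (*Acsl1*, *Eci2* and *Decr1*), in fetal liver for 3 (*Acsl4*, *Cpt1a* and *Hsd17b4*), in 2D-iHs for *Acadm* and in 2D-iHEs for *Acsl5*.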

How the data were processed

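RNA from 14 mouse libraries was sequenced. The authors deposited raw read counts per gene in 1 table. Their processing notes name Trimmomatic 0.36, HISAT2, Cufflinks, HTSeq and the build mm10, and how strand was counted is not given in the sources used here. Human iEC reads that aligned to the mouse genome cannot be told apart from mouse reads in the counts. The 28 members and the gene lists were chosen with earlier results of these data known. All 28 members are named, and of the other lists up to 3 called genes at either end of the fold changes plus genes of ketone use and PPAR control. Some genes are not reported here.

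The low-count filter kept genes whose log2(count + 1) averaged 3 or more. TMM scaling and edgeR 4.0.16 quasi-likelihood tests (R 4.3.3, two-sided) were run on the 8 culture libraries for comparisons among cultures and on all 14 for the others, with Benjamini-Hochberg adjustment over all genes tested and a threshold of 0.05. CPM are TMM-scaled. Confidence intervals of 95% came from the fitted SE, and a floor of 3 counts per library covers counting error only. Total counts were 20851489 to 35143325 per library. A column for iHEAs carried a name that does not show which of the 2 samples it is, and was used as an unnumbered library of that group. Library numbers did not pair libraries, with correlations of deviations from -0.174 to 0.167. Alternatives were the same filter at 5 or left off, DESeq2 1.42.0 size factors and Wald test, library totals alone, fewer libraries, the replicate block, a 2-fold limit and each library left out. The fits were tested on simulated data. Sequences are from RefSeq.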

Additional observations from a re-analysis of the deposited data

Results flagged for a closer look

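Of 54 groups of 4 culture libraries tested with Dixon's gap ratio, 1 had a library far from the others, and chance flags about 1 in 20 such groups. *Etfa* was at 92.7 CPM in iHLO library 2, against 89.3, 89.4 and 88.7 CPM in the other 3D libraries, and all 4 lay below the 2D libraries.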

How the results depend on the processing

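The counts for 3D against 2D, within each arm and between the livers kept within 1.5 times under every alternative but those given here. With a log2 fold change of at least 1, 5 members were higher and 0 lower in 3D against 2D, 4 and 0 in iHLOs against 2D-iHs, 6 and 0 in iHEAs against 2D-iHEs, 8 and 2 in 2D-iHs against fibroblasts, and 0 were lower in 2D-iHEs against 2D-iHs. Without a filter, iHEAs against iHLOs had 1 higher and 1 lower member, 2D-iHEs against 2D-iHs 2 lower (*Cpt1a* and *Acsl4*), and the co-culture difference 1 higher (*Acsl4*). A filter of at least 5 gave 2 lower in 2D-iHEs against 2D-iHs and 9 lower in 2D-iHs against fibroblasts, where *Acadvl* turned to -0.0126 (log2). Library totals alone gave 1 higher in iHEAs against iHLOs, 1 lower in adult against fetal liver (*Acsl3*, -0.28) and 3 higher in iHLOs against adult liver, with log2 fold changes of 0.75 for *Acsl3*, 0.40 for *Acsl4*, 0.61 for *Acadl* and 0.0855 for *Cpt1a*. The DESeq2 Wald test gave 2 lower in 2D-iHEs against 2D-iHs and 1 higher for the co-culture difference, and the fit on the 4 libraries of 2D-iHEs and 2D-iHs gave 2 lower. The cause was not tested for any of these.

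Since the library numbers did not pair the libraries, the replicate block is given once. With the block, 2D-iHEs against 2D-iHs had 2 lower members and the co-culture difference 1 higher. The same numbered libraries with nothing blocked gave 2 and 1 as well, and 1 higher in iHEAs against iHLOs, and this set has 1 iHEA library. Numbers crossed between 2D-iHs and 2D-iHEs, whose deviations correlated at -0.118, were added after seeing the data and gave 4 lower.

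With each library left out, higher and lower members numbered 11 to 12 and 7 to 8 in 3D against 2D, 10 to 11 and 8 in iHLOs against 2D-iHs, 10 and 6 to 7 in iHEAs against 2D-iHEs, 0 to 2 and 0 to 1 in iHEAs against iHLOs, 0 and 0 in 2D-iHEs against 2D-iHs, 0 to 2 and 0 for the co-culture difference, 13 to 16 and 4 to 7 in 2D-iHs against fibroblasts, 28 and 0 in adult against fetal liver, and 0 and 28 in iHLOs against adult liver. A condition left with 1 library was assumed to vary like the others. *Cd36*, *Fabp1*, *Acaa1b* and *Etfb* had few counts in the cultures, so their values there are less precise.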
